A study of Mus musculus with 15 samples.

Results

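Surface proteins that flow cytometry uses to recognise blood stem and progenitor cells are encoded by genes whose mRNA need not follow the protein. Described here are the 6 genes behind 2 sort gates of mouse bone marrow: Kit (the protein c-Kit), Slamf1 (CD150), Cd48, Cd34, and Fcgr3 and Fcgr2b (the Fcγ receptors CD16 and CD32). They were chosen by name from the gates, and each was the single probe set on the array that carried that symbol alone. All 6 were among the 19296 genes measured.

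The series concerns replication stress in ageing blood stem cells, and it holds 15 Affymetrix arrays of sorted marrow cells from C57Bl/6 mice, every one labelled male. Old HSC (haematopoietic stem cells) were on 3 arrays and young HSC on 5, sorted as Lin-, c-Kit+, Sca-1+, Flk2-, CD48- and CD150+ cells. Old GMP (granulocyte/macrophage progenitors) were on 3 arrays and young GMP on 4, sorted as Lin-, c-Kit+, Sca-1-, CD34+ and FcγR+ cells. The young groups came from mice aged 6 to 12 weeks, the old groups from mice aged 22 to 30 months. No transgene, deletion or treatment is named for any group, and all cells were enriched for c-Kit before a repeated sort. The RNA was amplified with a whole-transcript kit made for small inputs. Whether an array held 1 mouse or a pool is not stated, so the p-values rest on array-to-array spread alone, which may be technical. As in any bulk sample, fewer cells that express a gene and less RNA per cell cannot be told apart.

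Kit is the receptor for stem cell factor, a growth signal that stem cells and early progenitors need, and both gates required it. CD150 and CD48 belong to the SLAM family of immune receptors, and mouse stem cells are usually isolated as cells that carry CD150 and lack CD48. CD34 is a sialomucin of blood progenitors and blood vessels, which most adult mouse stem cells carry at low levels. CD16 is an activating and CD32 an inhibitory receptor for the Fc part of IgG, and antibodies in common use bind both. The HSC gate as labelled made no demand on CD34 or the Fcγ receptors, and the GMP gate none on CD150 or CD48.

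The values are RMA log2 expression, in which 1 unit is a doubling. Array medians lay close together, but the interquartile range ran from 1.96 (old HSC replicate 2) to 2.69 (young HSC replicate 1). The labelled cell types matched their marker lists: 11 of 11 measured stem cell genes were higher in HSC at both ages, and 12 of 12 GMP genes were lower in HSC in young mice and 11 of 12 in old mice. The label male was not borne out throughout. Xist, an RNA that female cells make from their silenced X, ranged from 5.46 to 5.84 on the 6 old arrays and above all of these on 7 of the 9 young arrays, where it reached 11.51. Only replicate 1 of young HSC (4.72) and of young GMP (5.49) did not exceed the old arrays. The Y-linked gene Eif2s3y lay between 8.82 and 9.57 on the old arrays, and replicate 4 of both young groups stood far lower, at 4.02 (HSC) and 4.32 (GMP). Replicate 2 of these groups read 7.75 and 7.77. On 3 further young arrays with Xist of 8.92 to 10.26 it lay between 8.89 and 9.04, so these carried both transcripts. Age and this difference cannot be told apart in most of the arrays. The age difference of Cd34 in HSC is therefore also given for the low-Xist arrays alone and with Xist as a covariate. For the other markers, only calls and turned directions are given for these settings. For genes outside the 6 markers, age differences are given without this check. Young HSC replicate 4 also stood apart, and results that rest on it are given without it.

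Cell type separated all 6 marker genes at both ages, and age separated 1. In young mice 2 of the 6 genes were higher and 4 lower in HSC than in GMP, each past an adjusted p of 0.05 in limma, where 24.6% of all genes tested passed (13.6% higher and 10.9% lower). In old mice the same count was 2 higher and 4 lower, where 22.2% of all genes passed (9.25% higher and 13% lower). On all 6 genes the HSC and GMP arrays did not overlap at either age. Groups did not overlap for 21.3% of all genes in young and 34.7% in old mice. Since the gates picked cells by these proteins, the directions for Slamf1, Cd48, Cd34, Fcgr3 and Fcgr2b are not independent of how the cells were chosen. Between old and young HSC 1 of the 6 genes passed, Cd34, which was lower in old HSC, where 11.5% of all genes passed (9.22% in the lower direction). The old and young arrays did not overlap for 1 of the 6 genes in HSC, where 12.8% of all genes did not, and for 0 of the 6 in GMP, where 6.83% did not. Between old and young GMP 0 of the 6 passed in limma, and 0% of all genes did. There 1 of the 6, Fcgr3, had an unadjusted p of 0.0397, and 870 genes or 4.51% of all had one under 0.05.

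**Figure D1:**
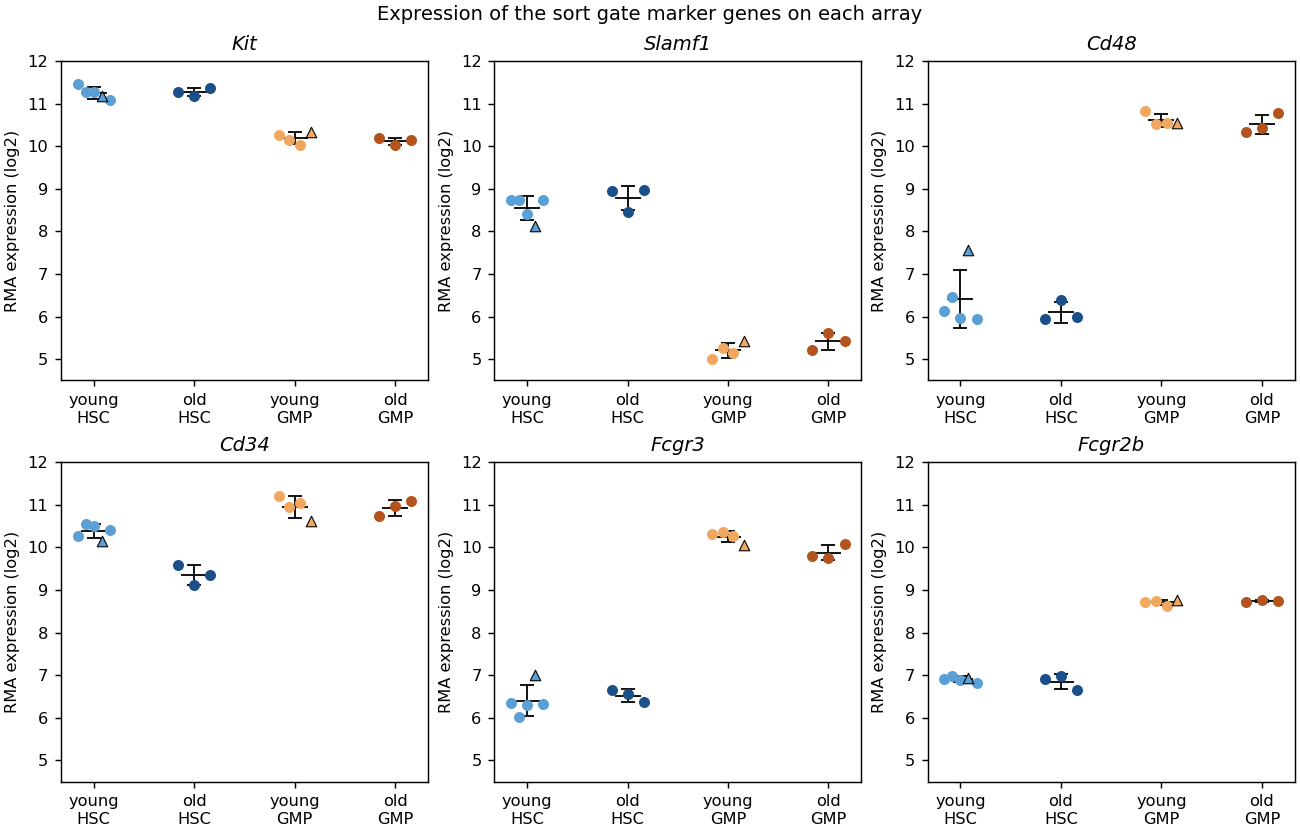
RMA expression (log2) of each sort gate gene on each of the 15 arrays. Points are arrays, triangles mark young replicate 4, and bars are the group mean ± SD (n = 5 young HSC, 3 old HSC, 4 young GMP, 3 old GMP). Cd34 in old HSC lies below every young HSC array, and Cd48 on young HSC replicate 4 (7.56) lies above the other HSC arrays.

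**Figure D2:**
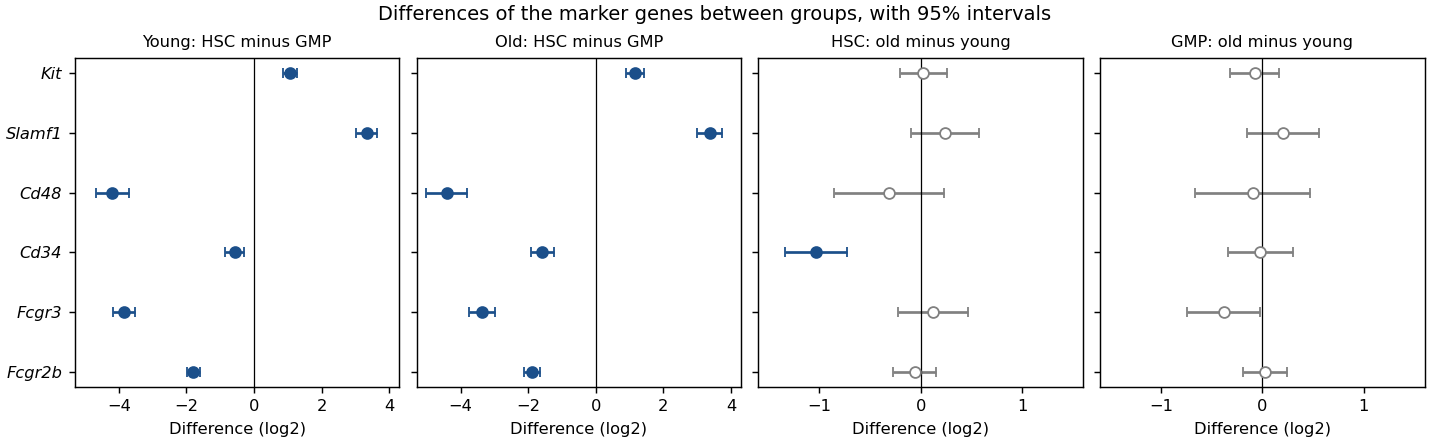
Difference (log2) of each sort gate gene in 4 comparisons, with 95% intervals from the limma fit. Filled points passed an adjusted p of 0.05. All 6 genes are filled in both comparisons of HSC with GMP, and Cd34 alone is filled in the comparison of old with young HSC.

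Kit, which both gates demanded, was above the array median on all 15 arrays, and it was higher in HSC. Its level was 11.46, 11.27, 11.26, 11.18 and 11.09 on the young HSC arrays and 11.28, 11.19 and 11.37 on the old HSC arrays. On young GMP arrays it was 10.25, 10.15, 10.04 and 10.34, and on old GMP arrays 10.19, 10.03 and 10.14. The lowest young HSC array lay 0.75 log2 above the highest young GMP array, while the ages overlapped within each cell type. The difference of HSC from GMP was 1.06 ± 0.10 log2 (SE) in young mice, a 2.08-fold higher level (limma, adjusted p = 1.43e-07). In old mice it was 1.16 ± 0.12 log2 or 2.23-fold (limma, adjusted p = 8.82e-07). A marker that both gates count as positive thus stood at unequal mRNA levels in the sorted cells. The old minus young difference was 0.03 log2 in HSC (95% interval -0.20 to 0.26) and -0.08 in GMP (-0.32 to 0.17), and neither passed the test.

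Of the genes that act with Kit, 17 were measured besides Kit itself, among them its signalling partners. In young mice 4 of the 17 were higher and 1 lower in HSC, where 24.6% of all genes passed (13.6% higher and 10.9% lower). Those with the largest differences were Pik3r1, the regulatory subunit of PI3 kinase (0.97 log2 higher), Jak2, a tyrosine kinase of cytokine receptors (0.88) and the transcription factor Stat3 (0.60). In old mice 4 were higher and 1 lower, where 22.2% of all genes passed (9.25% higher and 13% lower). Among these partners were Jak2 (0.72 higher), Pik3r1 (0.68 higher) and Cbl, the ubiquitin ligase that removes activated Kit (lower in HSC, -0.73 log2). The median over the 17 genes was 0.19 log2 in young and 0.05 in old mice, beside -0.05 and 0.02 over all genes. With age 0 of them passed the limma test in HSC or in GMP, and 3 of 17 in HSC and 0 in GMP had an unadjusted p under 0.05, as did 31.4% of all genes in HSC.

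Slamf1 and Cd48 are neighbours on chromosome 1 and showed opposite patterns, which is why their promoters are shown. In the RefSeq gene order only 1 entry counted as protein-coding, Tma7-ps, lies between them. Each window runs from 250 bases before to 50 bases after the RefSeq gene start in GRCm38.p6, on the plus strand, and reads 5′ to 3′. It lies at chr1:171766882-171767181 for Slamf1 and at chr1:171681742-171682041 for Cd48. Capitals mark exact matches to short motifs of blood transcription factor families, which were chosen after the sequences and values had been seen.
Slamf1: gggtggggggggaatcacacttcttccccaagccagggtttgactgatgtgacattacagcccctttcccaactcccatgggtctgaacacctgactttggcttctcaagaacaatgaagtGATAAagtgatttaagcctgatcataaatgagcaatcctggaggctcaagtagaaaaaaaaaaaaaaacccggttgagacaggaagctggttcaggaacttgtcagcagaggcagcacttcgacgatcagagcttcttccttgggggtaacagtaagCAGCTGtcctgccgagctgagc
Cd48: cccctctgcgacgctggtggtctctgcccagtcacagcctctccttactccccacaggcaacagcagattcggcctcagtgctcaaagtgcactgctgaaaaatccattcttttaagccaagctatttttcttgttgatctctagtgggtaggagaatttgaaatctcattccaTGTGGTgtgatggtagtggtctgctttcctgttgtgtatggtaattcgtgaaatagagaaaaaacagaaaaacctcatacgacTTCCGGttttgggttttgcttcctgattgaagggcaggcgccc
The motifs searched on both strands were GATAA (GATA factors), TGTGGT (RUNX), GAGGAA and CCGGAA (ETS) and CAGCTG (a palindromic E-box). The Slamf1 window held GATAA at position -129 and CAGCTG at position 29 from the gene start. The Cd48 window held TGTGGT at -76 and, on the opposite strand, CCGGAA at 8. Among 27025 mouse promoter windows of this length, GATAA was found in 25.8%, CAGCTG in 16.1%, TGTGGT in 16.9% and CCGGAA in 15.2%, so each match is common. The GC content was 49.0% for Slamf1 and 47.3% for Cd48, beside a median of 52.7% over all windows.

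Slamf1 encodes CD150, a receptor that binds itself on neighbouring cells, and its mRNA marked HSC sharply. The level on young HSC arrays was 8.73, 8.73, 8.42, 8.12 and 8.74, and on old HSC arrays 8.94, 8.46 and 8.96. Young GMP arrays read 5.00, 5.27, 5.15 and 5.43, and old GMP arrays 5.21, 5.61 and 5.42. All 7 GMP values lay below the lower quartile of their array and all 8 HSC values above its median. The level in HSC was 3.34 ± 0.15 log2 above GMP in young mice, or 10.1-fold (limma, adjusted p = 2.33e-12). In old mice it was 3.37 ± 0.18 log2 above, or 10.3-fold (limma, adjusted p = 7.87e-11). The GMP levels lie near the floor of the arrays, so these folds hold on the array scale only and are not exact ratios of mRNA.

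With age, Slamf1 differed by 0.24 ± 0.16 log2 in HSC (limma, adjusted p = 0.311), with a 95% interval from -0.10 to 0.57. The old and young HSC arrays overlapped. The gene passed the test with quantile normalization (0.52 log2, adjusted p = 0.0318) and with array weights (0.31 log2, adjusted p = 0.0253), and the difference was 0.13 log2 without young HSC replicate 4. Over all settings run, the difference ranged from 0.06 to 0.52 log2. In GMP the age difference was 0.20 ± 0.17 log2 and did not pass.

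Cd48 encodes a lipid-anchored ligand of the receptor CD244, and its mRNA showed the reverse. GMP levels were 10.83, 10.52, 10.54 and 10.54 on young and 10.34, 10.43 and 10.77 on old arrays. HSC levels were 6.13, 6.47, 5.96, 7.56 and 5.95 on young and 5.94, 6.39 and 5.98 on old arrays. All 3 old HSC arrays and 2 of the 5 young HSC arrays lay below their lower quartile, and 1 young HSC array, replicate 4, lay above its median. HSC minus GMP was -4.19 ± 0.24 log2 in young mice, 18.3-fold lower (limma, adjusted p = 9.47e-11). In old mice it was -4.41 ± 0.29 log2, 21.3-fold lower (limma, adjusted p = 1.51e-09). Since the HSC levels lie near the floor of the arrays, both folds hold on the array scale only and are not exact ratios of mRNA. The age difference of Cd48 was -0.31 ± 0.26 log2 in HSC (limma, adjusted p = 0.409) and -0.03 without young HSC replicate 4, and -0.09 ± 0.27 in GMP.

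The other SLAM genes did not share 1 pattern. Besides Slamf1 and Cd48, 10 SLAM receptors and adaptors were measured, of which 2 were higher and 4 lower in young HSC than in young GMP, and 1 higher and 4 lower in old mice. Of all genes, 24.6% passed in young and 22.2% in old mice. Fyn, a Src-family kinase that SLAM receptors recruit, was 1.94 log2 higher in HSC of young and 1.46 log2 higher in HSC of old mice. Sh2d1b1, which encodes the adaptor EAT-2, was lower in HSC, by differences of -2.09 log2 in young and -1.41 log2 in old mice. Ly9, the SLAM receptor CD229, was the single gene of the family that passed with age in HSC, where 11.5% of all genes passed. It fell by 0.73 ± 0.12 log2 in old HSC (limma, adjusted p = 0.00193), from a mean of 9.05 to 8.32. The median of the 10 genes with age in HSC was -0.06 log2, beside 0.03 over all genes. In GMP 0 of the 10 passed with age, and the largest differences were those of Slamf7 (0.75 log2) and Sh2d1b1 (-0.75 log2). An unadjusted p under 0.05 was found for 4 of the 10 in HSC and 4 in GMP, beside 31.4% and 4.51% of all genes.

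**Figure D3:**
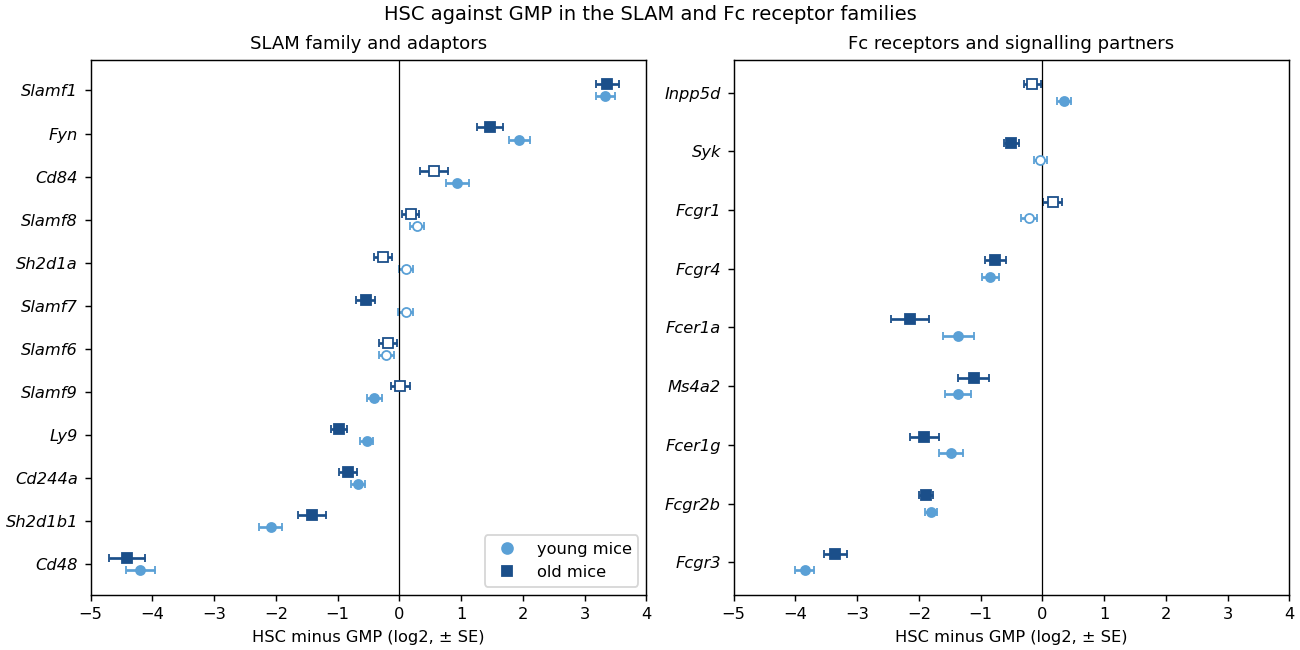
Difference of HSC from GMP (log2 ± SE) for the SLAM family and its adaptors and for the Fc receptors and their signalling partners, in young mice (circles) and old mice (squares). Filled symbols passed an adjusted p of 0.05. Slamf1 and Cd48 stand at opposite ends of their family (3.34 and -4.19 log2 in young mice), whereas Fcgr3 (-3.85) and Fcgr2b (-1.80) lie on the same side.

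Fcgr3 and Fcgr2b, close paralogs on chromosome 1 with Fcgr4 between them, were both higher in the cells gated on Fcγ receptors, though not equally. How far each probe set also detects mRNA of the other gene was not tested. For Fcgr3, the activating receptor CD16, young GMP arrays read 10.31, 10.37, 10.26 and 10.06 and old GMP arrays 9.79, 9.75 and 10.07. Young HSC arrays read 6.36, 6.02, 6.29, 7.01 and 6.32, and old HSC arrays 6.64, 6.55 and 6.36. No HSC array was above its median for Fcgr3 or Fcgr2b, and all 7 GMP arrays were. HSC minus GMP was -3.85 ± 0.15 log2 in young mice, 14.4-fold lower (limma, adjusted p = 4.01e-13), and -3.35 ± 0.18 log2 in old mice, 10.2-fold lower (limma, adjusted p = 1.15e-10). Like those of Cd48, the HSC levels of Fcgr3 lie near the floor of the arrays. Both folds thus hold on the array scale only and are not exact ratios of mRNA.

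For Fcgr2b, the inhibitory receptor CD32, the level ran from 8.63 to 8.76 over the 7 GMP arrays and from 6.65 to 6.99 over the 8 HSC arrays. These were narrow ranges: the SD was 0.02 in old GMP, 0.06 in young GMP, 0.18 in old HSC and 0.07 in young HSC. HSC minus GMP was -1.80 ± 0.09 log2 in young mice, 3.49-fold lower (limma, adjusted p = 1.99e-11), and -1.89 ± 0.11 log2 in old mice, 3.70-fold lower (limma, adjusted p = 3.74e-10). Its age difference was -0.06 log2 in HSC (95% interval -0.27 to 0.15) and 0.03 in GMP (-0.19 to 0.25).

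Among the 6 genes, Fcgr3 had the lowest p for age in GMP. Its mean was 10.25 ± 0.13 (SD, n = 4) in young and 9.87 ± 0.18 (SD, n = 3) in old GMP, a difference of -0.38 ± 0.17 log2 (limma, unadjusted p = 0.0397) that did not pass after adjustment. The highest old GMP array (10.07) just exceeded the lowest young one (10.06). The gene passed with array weights (-0.48 log2, adjusted p = 0.0168), a setting under which 832 genes passed. In HSC its age difference was 0.12 ± 0.16 log2, and it was 0.27 without young HSC replicate 4 and 0.03 without young HSC replicate 2, and did not pass in either case. It passed with array weights (0.34 log2, adjusted p = 0.0111), under which 8966 genes passed, and it was -0.03 with quantile normalization. The age effect in HSC minus that in GMP was 0.50 ± 0.24 log2 (limma, adjusted p = 0.442).

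Of the 7 other Fc receptor genes and partners measured, 1 was higher and 4 were lower in young HSC than in young GMP, and 0 higher and 5 lower in old mice. The share of all genes that passed was 24.6% in young and 22.2% in old mice. Fcer1g, the common γ chain through which CD16 signals, was lower in HSC, with -1.48 log2 in young and -1.91 log2 in old mice. Fcer1a and Ms4a2, chains of the IgE receptor of mast cells and basophils, were lower in HSC as well, with -1.37 log2 for Ms4a2 in young mice and -2.15 log2 for Fcer1a in old mice. The mast cell and basophil list lay between 8.06 and 8.21 in mean level on the GMP arrays and between 5.77 and 6.31 on the HSC arrays, with 8 of 8 genes lower in HSC in young and 6 of 8 in old mice. Its part in the Fc receptor differences was not tested. With age 0 of the 7 genes passed the limma test in HSC or GMP, and 4 of 7 in HSC and 1 in GMP had an unadjusted p under 0.05, beside 31.4% of all genes in HSC and 4.51% in GMP.

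Cd34 was the single marker gene that passed between old and young HSC in the reported fit, and its promoter is shown for that reason. The window is at chr1:194938571-194938870 (GRCm38.p6, RefSeq, plus strand, same extent as above), with the motif match in capitals.
Cd34: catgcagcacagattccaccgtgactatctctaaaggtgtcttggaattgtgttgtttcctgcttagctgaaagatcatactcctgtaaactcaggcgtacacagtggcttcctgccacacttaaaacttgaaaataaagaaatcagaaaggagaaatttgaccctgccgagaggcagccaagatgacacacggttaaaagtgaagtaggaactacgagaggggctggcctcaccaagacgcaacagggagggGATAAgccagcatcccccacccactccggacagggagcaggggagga
It held GATAA at position 4 and none of the other motifs searched. That no further motif was found says only that these letters are not in this window.

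On the 5 young HSC arrays Cd34 read 10.27, 10.55, 10.51, 10.15 and 10.40. On the 3 old HSC arrays it read 9.58, 9.12 and 9.35. All old HSC arrays were below all young ones, with 0.58 log2 between the highest old and the lowest young array. Groups failed to overlap in the lower direction for 7.69% of all genes. The mean fell from 10.38 ± 0.16 (SD, n = 5) to 9.35 ± 0.23 (SD, n = 3), by 1.03 ± 0.14 log2 or 2.04-fold (limma, adjusted p = 9.46e-04, 95% interval -1.33 to -0.73). The difference ranked number 111 by size among the 19296 genes. Even so, Cd34 remained above the array median on every old HSC array.

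In GMP, whose gate required CD34, the levels were 11.21, 10.96, 11.03 and 10.61 on young and 10.73, 10.97 and 11.10 on old arrays. They overlapped, and the difference was -0.02 ± 0.15 log2 (95% interval -0.34 to 0.30). HSC minus GMP was -0.58 ± 0.13 log2 in young mice, 1.49-fold lower (limma, adjusted p = 0.00272), and -1.59 ± 0.16 log2 in old mice, 3.00-fold lower (limma, adjusted p = 5.42e-07). Old and young GMP thus stood highest without differing beyond their spread, young HSC came next, and old HSC stood lowest. The gap between young HSC and GMP was small: the highest young HSC array (10.55) lay just below the lowest GMP array, young replicate 4 (10.61). The age effect in HSC minus that in GMP was -1.01 ± 0.21 log2 (limma, adjusted p = 0.0870), which did not pass. Of the 6 genes 0 passed this limma test, where 0.0933% of all genes did, and Cd34 and Fcgr3, 2 of the 6, had an unadjusted p under 0.05, as did 11.2% of all genes. For Cd34 it passed with the replicate number as a block (adjusted p = 0.0444), with array weights (-0.79, adjusted p = 0.00338) and without young HSC replicate 4 (-1.07, adjusted p = 0.0203).

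The age difference of Cd34 in HSC ran from -1.14 to -0.73 log2 over all planned settings and with each HSC array left out, and it passed in each. With Xist as a covariate it was -1.12 log2. With the low-Xist arrays alone, which leave 1 young array per cell type assumed to vary like the other groups, it was -0.92 ± 0.22 log2 (limma, adjusted p = 0.0668) and did not pass. In young mice the difference of HSC from GMP was -0.94 log2 on those arrays. Fewer genes in all were called lower when the arrays were put on 1 distribution: 1779 of 2213 called genes were lower in old HSC as deposited, and 747 of 1305 with quantile normalization, where Cd34 differed by -0.76 log2.

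**Figure D4:**
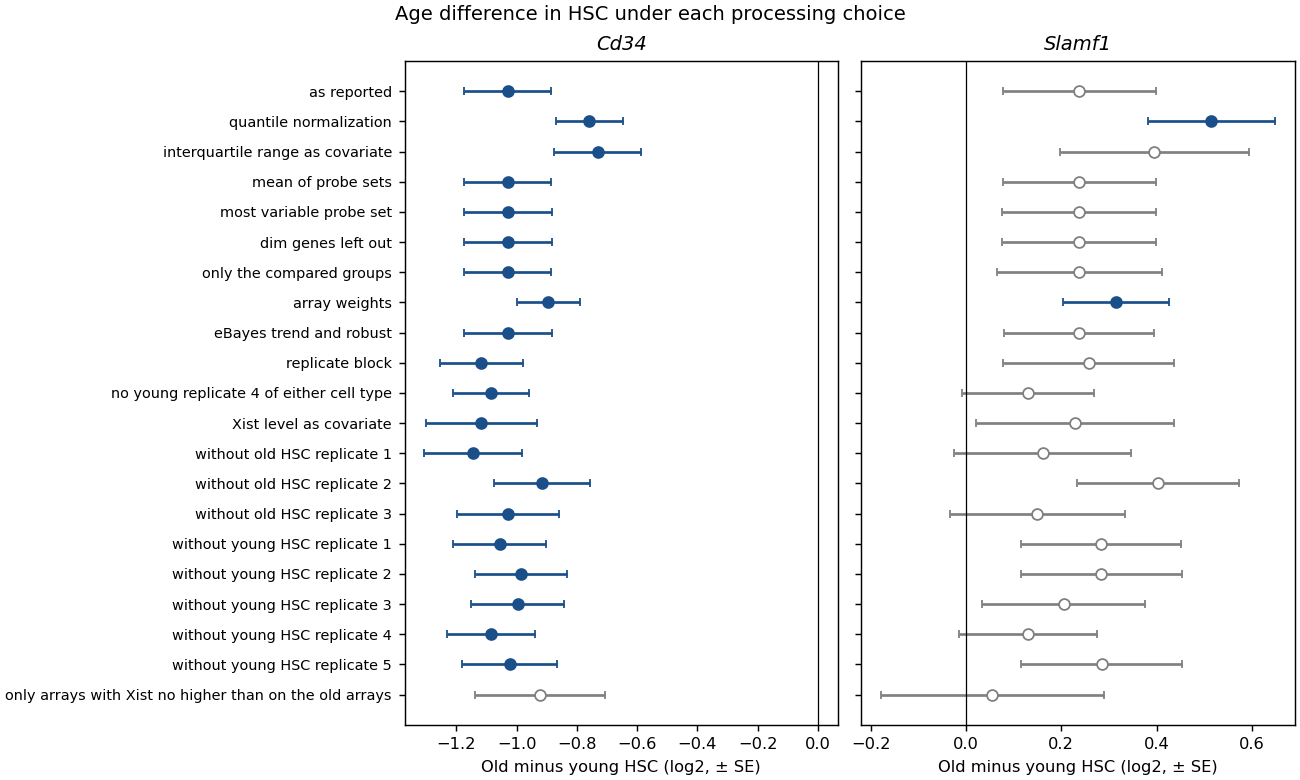
Old minus young HSC difference (log2 ± SE) of Cd34 and Slamf1 under each processing choice and with each HSC array left out. Filled points passed an adjusted p of 0.05. Cd34 stays between -1.14 and -0.73 log2 in every setting. It passes in all but the last, the low-Xist arrays (-0.92), and Slamf1 passes with quantile normalization and array weights.

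CD34 is also carried by blood vessel and mast cells. The mean of 8 endothelial genes lay between 7.58 and 7.67 on old HSC arrays and between 7.59 and 7.80 on young ones. Of the 8, 1 passed, Emcn, which was lower in old HSC (-1.18 log2), and 4 had an unadjusted p under 0.05. These 4 did not share 1 direction, since Kdr was higher (0.48 log2) and Robo4 lower (-0.33). The median over the 8 was -0.03 log2, beside 0.03 over all genes. The mean of 8 mast cell and basophil genes lay between 6.03 and 6.31 on old and between 5.77 and 6.09 on young HSC arrays, with 0 of 8 passing in limma and 1 at an unadjusted p under 0.05. T and NK cell genes, with 1 of 8 higher and 1 lower and 4 at an unadjusted p under 0.05, lay between 6.80 and 6.95 on old and between 6.60 and 6.72 on young HSC arrays. Among all genes, 11.5% passed with age in HSC and 31.4% had an unadjusted p under 0.05. The part of these cell types in the fall of Cd34 was not tested. Of the relatives and partners of CD34, 3 others were measured. Podxl, which encodes the related sialomucin podocalyxin, was 0.45 log2 higher in HSC than in GMP in young mice and 0.50 log2 higher in old mice, opposite to Cd34. None of the 3 passed the limma test with age in HSC, where 1 had an unadjusted p under 0.05.

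Of the other genes named by the gates, Ly6a (Sca-1) was not analysed here and Flt3 (Flk2) was measured. Flt3 read 8.65, 8.29, 8.58, 8.47 and 8.25 on young HSC and 7.65, 7.74 and 7.88 on old HSC arrays, although both were sorted as Flk2-. It fell by 0.69 ± 0.12 log2 in old HSC (limma, adjusted p = 0.00341), in the same direction as Cd34. In GMP it read 7.80, 7.65, 7.84 and 7.76 on young and 8.33, 8.44 and 8.73 on old arrays, without overlap, and the difference of 0.73 ± 0.13 log2 did not pass (limma, adjusted p = 0.294). The age effect in HSC minus that in GMP was -1.43 ± 0.18 log2 and passed (limma, adjusted p = 0.00280). Genes of lineage antibody targets were listed by name, not read from the gate labels, and 9 were measured. Among them was Ptprc, with group means from 10.2 to 10.8. Of the 9, 1 passed with age in HSC: Itgam, the myeloid integrin CD11b, fell by 0.76 log2 (limma, adjusted p = 0.00341). Over all genes 11.5% passed there, so 1 of 9 is near the share of all genes.

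Surface genes used in other marrow gates differed with cell type too. Of 12 measured, 7 were higher and 2 lower in young HSC than in young GMP, and 6 higher and 2 lower in old mice. Over all genes 24.6% passed in young and 22.2% in old mice. Tek (the angiopoietin receptor Tie2) and Procr (the protein C receptor, CD201) were 2.68 and 2.10 log2 higher in young HSC, and Csf1r, the receptor for macrophage colony-stimulating factor, was lower (-2.48 log2). These are smaller than the differences of Slamf1, Cd48 and Fcgr3 in the same arrays. With age, Eng (endoglin) fell by 0.69 log2 in old HSC, and Ly6d, a marker of lymphoid progenitors, was 0.46 log2 higher. These were the 1 lower and 1 higher of the 12 that passed, where 11.5% of all genes did.

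For each of the 6 markers, the genes with the most similar course over the 15 arrays were sought. Likeness was measured as the root mean square difference after each gene was centred on its own mean, and the 5 nearest genes were named for every marker. Only the 9648 genes with a mean level above that of the median gene were searched. How near the best of so many genes would come by chance was not tested. Nearest to Cd34 was Parvg, an adaptor of integrin signalling, at 0.12 log2, with means of 8.87 in old HSC, 9.83 in young HSC, 10.26 in old GMP and 10.37 in young GMP. After it came Rfc4, Ebp, Eif1ad and Ddx39a, at 0.15 to 0.17 log2. Nearest to Slamf1 was the fatty acid transporter gene Slc27a6 at 0.20 log2, followed by Tnip3, Trpc6, F11r and Ccdc112. Nearest to Cd48 was Ly86, which encodes the lymphocyte antigen MD-1, at 0.31 log2, followed by Mcpt8, Tyrobp, Cybb and F13a1. Nearest to Fcgr3 was Trem3 at 0.33 log2, followed by Mpeg1, Ccr2, Igsf6 and Hdc. For Fcgr2b the nearest was Gsr (glutathione reductase) at 0.15 log2, then Pram1, Fndc3b, Nin and Gpr160. For Kit it was Rhof at 0.12 log2, then Ptpn21, Uaca, Impact and Rbfox2.

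The HSC arrays differed in how near some marker genes lay to the GMP level, which was examined after the values had been seen. Position was expressed as the share of the way from the mean of the other HSC arrays of the same age to the GMP mean of that age. On young HSC replicate 4, Cd48 stood 32.0% of that way, Fcgr3 19.0% and Slamf1 15.5%, whereas Fcgr2b stood at 2.48% and Kit at 8.43%. Cd34 stood at -53.2%, away from the GMP level, but at 35.0% on young HSC replicate 2 and 27.0% on young HSC replicate 3. For Cd34 young HSC differed from young GMP by only -0.58 log2, so small shifts give large shares. Old HSC replicate 2 stood at 13.98% for Slamf1, 11.48% for Kit, 10.03% for Fcgr2b and 9.30% for Cd48, and its mean of the 11 stem cell genes was the lowest of the old HSC arrays. Young HSC replicate 5 stood at 18.7% for Kit. On young HSC replicate 4 the mean of the 12 GMP genes, 7.52, was within the 7.45 to 7.57 of the young HSC arrays. Its mean of the 11 stem cell genes was the lowest of them (8.96), and that of 8 macrophage genes the highest (6.98, from a low of 6.41). The part of these genes in the marker values was not tested. Without young HSC replicate 4 the differences of young HSC from young GMP were 3.44 log2 for Slamf1, -4.48 for Cd48 and -0.52 for Cd34.

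**Figure D5:**
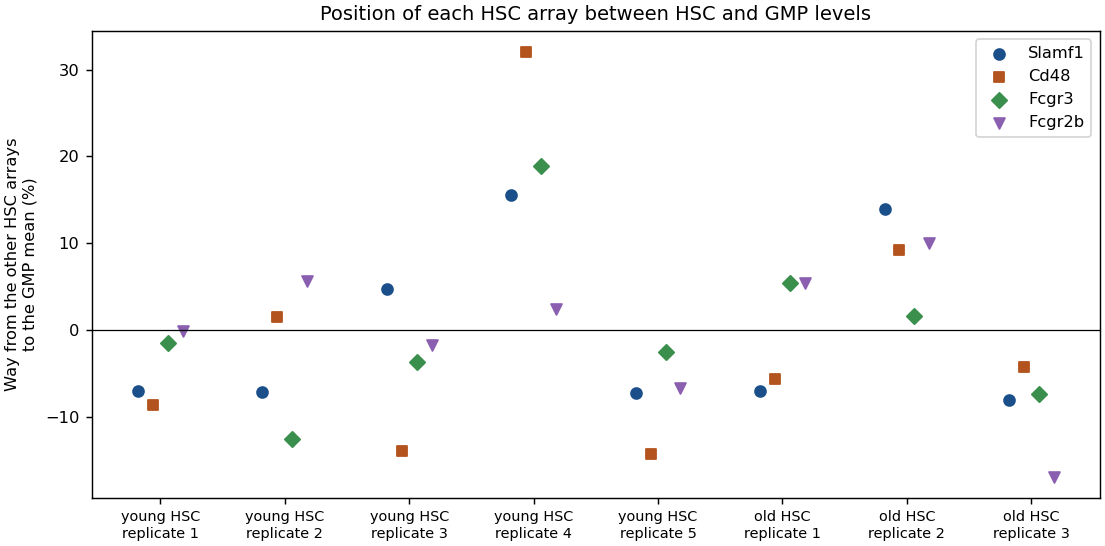
Position of each HSC array on the way from the mean of the other HSC arrays of its age (0%) to the GMP mean of that age (beyond the plotted range), for Slamf1, Cd48, Fcgr3 and Fcgr2b. Points are arrays. Young HSC replicate 4 reaches 32.0% for Cd48 and 19.0% for Fcgr3, above every other HSC array for these genes.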

How the data were processed

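The deposited table held log2 expression values of 23309 probe sets on 15 arrays, made by the authors with RMA. Per the submitters' processing notes the tools were RMA, affy and limma. Their versions, a genome build and a probe set filter are not given in the sources used here, and the log2 scale was read from the values. Probe sets with exactly 1 gene symbol (20728) were kept, those with several (1174) or none (1407) left out, and the brightest probe set stood for each gene, which gave 19296 genes. In R 4.3.3 with limma 3.58.1, the 15 arrays entered 1 linear model with a mean for each group, with default empirical Bayes and Benjamini-Hochberg adjustment over all genes. Precision is limited by the number of arrays.

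The members, gene lists and tests were chosen with earlier results of these data known. Named genes were the 6 markers, Flt3, the up to 4 largest called genes of a list (up to 2 where none passed), some of which are left unprinted, and the 5 nearest genes of each marker. Emcn and Xist were named after their values were seen. Alternatives changed the normalization, probe set choice, filter on dim genes, groups fitted, array weights, moderation, replicate block, Xist as a covariate and arrays left out. The low-Xist setting was chosen after seeing the data. Same-numbered young HSC and GMP arrays deviated together (correlations of 0.29, 0.23, 0.16 and 0.52), so they may be pairs. The reported fit made no use of such pairs. In old mice the correlations were 0.05, 0.23 and 0.42, and between ages from -0.24 to 0.15, so not all were over 0.1 and a pairing there is uncertain. The replicate block, which tied same-numbered arrays over all groups, was run as an alternative only. For each gene with more than 1 promoter window, the first listed was used, and all 6 markers were matched to RefSeq windows.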

Additional observations from a re-analysis of the deposited data

Results flagged for a closer look

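Cd48 on young GMP replicate 1 (10.83) stood apart from the other 3 young GMP arrays, with a gap of 0.914 of the group's range. Over the 12 groups of 4 or 5 arrays examined in this way, chance marks about 1 in 20. The age effect of Flt3 differed between the cell types by -1.43 log2 (HSC minus GMP), by a test of the difference itself.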

How the results depend on the processing

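All 6 marker genes passed for HSC against GMP at both ages under every setting run, with the arrays left out singly included. For age in HSC, 1 of the 6 passed as reported, 2 with quantile normalization, 3 with array weights and 0 with the low-Xist arrays, which were chosen after seeing the data and hold fewer arrays. Leaving out 1 array gave 1 throughout. For age in GMP, 0 passed, and 1 with array weights. For the difference of both age effects 0 passed, 2 with array weights, 1 with the replicate block, 1 without both young replicate 4 arrays, and from 0 to 1 on leaving out 1 array, the call being made without young HSC replicate 4. The cause was not tested. The replicate block, an uncertain pairing outside the young arrays, changed no other call of the 6 genes. Directions that turned belonged to differences that did not pass as reported, though Fcgr3 for age in HSC passed with array weights (0.34 log2). For age in HSC they were Kit with the replicate block (-0.0085), Xist as a covariate (-0.073) and low-Xist arrays (-0.18), Fcgr3 with quantile normalization (-0.034) and the interquartile range as a covariate (-0.038), and Fcgr2b with array weights (0.0070). For age in GMP they were Cd48 with the block (0.068) and with Xist (0.048) and Cd34 with quantile normalization (0.023) and the interquartile range (0.039). For the difference of both effects they were Slamf1 without young replicate 4 (-0.14) and with low-Xist arrays (-0.36), Cd48 in these settings (0.088 and 0.28) and Kit with low-Xist arrays (-0.048). On leaving out 1 array, Kit (-0.020 to 0.079) and Fcgr2b (-0.12 to 0.042) turned for age in HSC, Cd34 (-0.13 to 0.083) and Fcgr2b (-0.00019 to 0.042) for age in GMP, and Slamf1 (-0.073 to 0.20), Cd48 (-0.36 to 0.066) and Fcgr2b (-0.15 to 0.016) for the difference. Over all genes, the count called with age in HSC ran from 345 (without old HSC replicate 2) to 5312 (without young HSC replicate 4), from 105 with the interquartile range as a covariate to 8966 with array weights, around 2213 as reported. In GMP it ran from 0 to 12 and from 0 to 832, and for the difference of both effects from 1 to 192 and from 5 to 2407, around 18. Array number and low signal limit the values of Slamf1 in GMP and of Cd48 and Fcgr3 in HSC, which lie near the floor of the arrays.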
